A study of Mus musculus with 4 samples.

Results

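The report concerns 36 genes for cholesterol and fatty acid synthesis, chosen by name: enzymes of the mevalonate, sterol and fatty acid pathways and the proteins that sense sterols. A gene was kept if it reached 1 FPKM in any library, a unit of fragments scaled to the exonic length of the gene and the depth of the library. All 36 were kept, of 12817 genes at that level among 55573 identifiers, and all 36 were at 1 FPKM or more in all 4 libraries. The lowest value was 1.28 FPKM (Acss2 with siNeg), so no member stood outside the threshold.

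RNA was sequenced from primary MEFs, fibroblasts cultured from mouse embryos and not an established line. All 4 cultures had 100 nM SAG, an agonist of Smoothened that turns on Hedgehog signalling, for 24 h. The untransfected cultures were wild type (WT) and knockout for the kinase gene Dyrk2 (Dyrk2-KO). The transfected cultures, both WT, had the control siRNA siNeg or siDyrk2, which targets Dyrk2. Each group held 1 library, so no difference below has a replicate check and no test was made. The labels do not give the number of embryos behind a culture or the time after transfection, and cultures without SAG were not analysed here.

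Cholesterol is built from acetyl-CoA by way of mevalonate, farnesyl diphosphate, squalene and lanosterol. Fatty acids are built from the same acetyl-CoA and then elongated and desaturated. The SREBP transcription factors, encoded by Srebf1 and Srebf2, drive genes of both routes. The escort protein SCAP carries them out of the endoplasmic reticulum when sterols are low, and INSIG proteins hold them back when sterols are high. Sterols also act in Hedgehog signalling, since cholesterol modifies Hedgehog ligands and binds Smoothened.

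Estimated depth was 19979510 to 23926059 fragments a library, and the members held 206 to 30210 fragments each. Dyrk2 itself was below its control in both settings, at 0.57 FPKM in the knockout against 6.59 and at 0.81 with siDyrk2 against 7.06. The Hedgehog target Gli1 was low in the same libraries, at 0.24 against 28.81 and at 2.25 against 30.17 FPKM. The fibroblast genes Col1a1, Col1a2 and Col3a1 were at 931.79 FPKM or more in every library, and no epithelial marker of 5 reached 1 FPKM. The knockout library stood apart in other ways: the Y-linked gene Ddx3y was at 8.28 FPKM there and at 0.02 or less in the other 3. Genotype and Y-linked expression thus differ together, and the part of sex or embryo in the results was not tested.

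In the knockout nearly the whole pathway was lower than in wild type. Of the 36 genes 33 were lower, against 55.6% of all tested genes, and 3 were higher, against 43.7%. Of the 33, 9 were at least 1.5-fold lower on FPKM + 1, against 4.06%. No member was 1.2-fold higher (10.1% of all genes) or 1.5-fold higher (2.58%), and none was 2-fold lower (1.21%). The median log2 ratio of FPKM + 1 was -0.43 for the members and -0.02 for all tested genes. The differences were thus modest in size and alike in direction. On FPKM alone, the scale of the folds given with intervals below, Idi1 (1.63), Stard4 (1.55) and Tm7sf2 (1.52) were also over 1.5-fold lower. For 31 of the 33 lower genes the 95% counting interval of the fold left out equality, and this interval covers counting error only. For siNeg against wild type it also left out equality for 19 of the 36 genes, 15 higher and 4 lower. The share over all tested genes was not computed for this interval.

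The knockout was also the lowest of all 4 libraries for 31 of the 36 genes, against 32.5% of all tested genes. For 22 members it lay below the other 3 libraries by more than the whole range of those 3 on the log2(FPKM + 1) scale, against 10.5% of all tested genes. By contrast siNeg was lowest for 3 members, against 27.2%, and siDyrk2 was highest for 16, against 31.7%. The exceptions to the lowest place were Pmvk, Scap, Acss2, Me1 and Lpin1. Pmvk was close, at 6.89 FPKM in the knockout and 6.87 with siNeg.

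**Figure D1:**
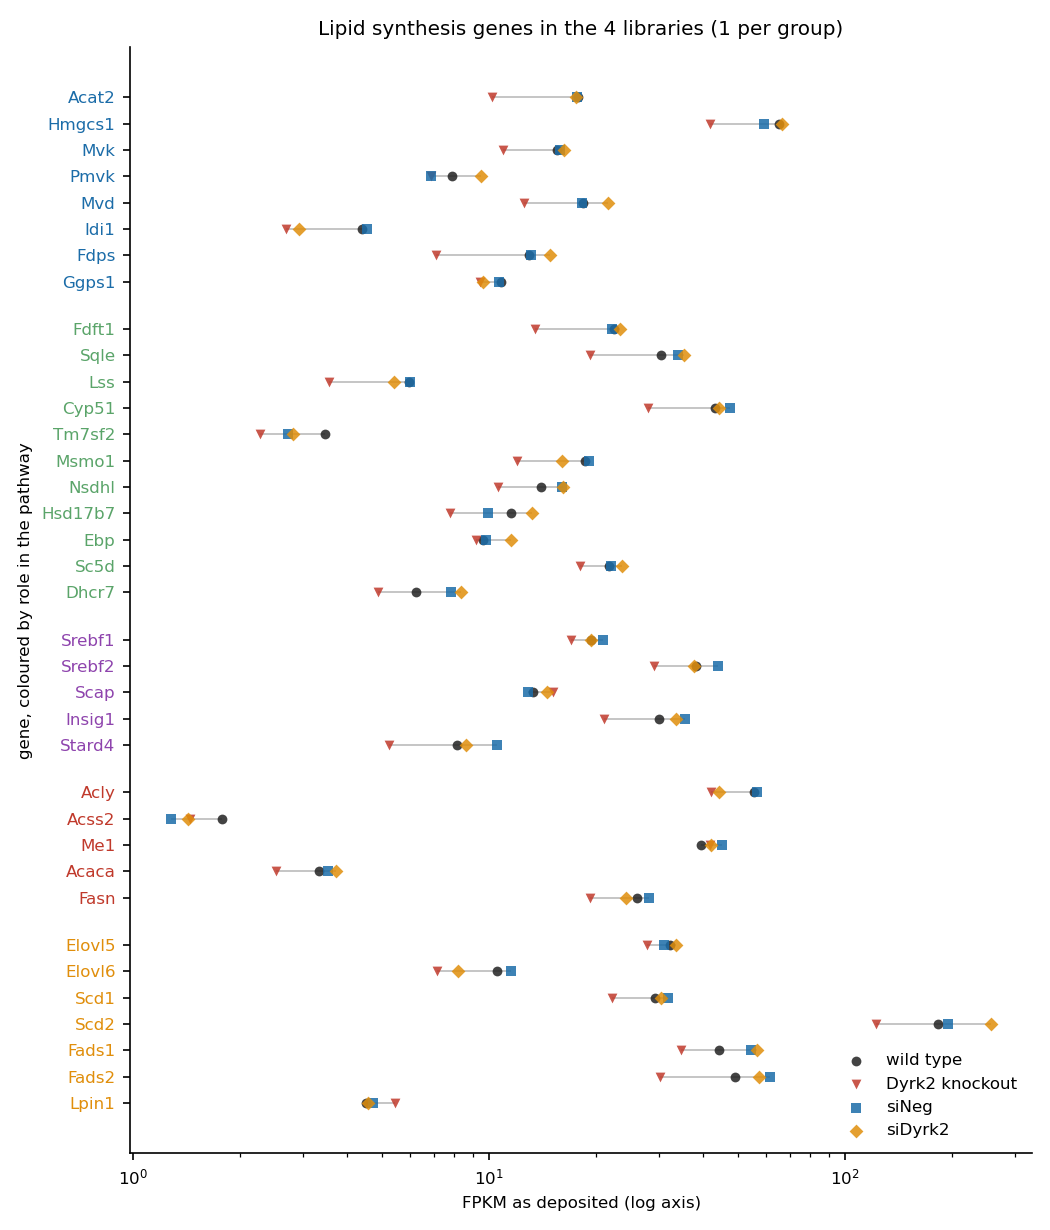
FPKM of the 36 genes as deposited (log axis), 1 row per gene, ordered and coloured by role, with 1 symbol for each of the 4 libraries. The red triangle of the knockout is the leftmost symbol in 31 rows, and the highest level is that of Scd2 with siDyrk2, 257.50 FPKM.

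The promoters of these genes were read for the letters of known SREBP partners. RefSeq windows on GRCm38.p6, from 250 bases before to 50 after the start, were found for 29 of the 36 genes, and both strands were searched. The sterol regulatory element TCACNCCAC, which SREBP proteins bind, was found in 1 of the 29, Hmgcs1, and in 1.44% of 27025 genes with a window. The SREBP E-box form TCACGTGA was in 0 of 29 and in 1.12% of all. CCAAT, bound by NF-Y, was in 23 of 29 (79.3%) and in 41.1% of all genes. GGGCGG, bound by Sp1, was in 22 of 29 (75.9%) and in 38.2% of all. The shares of all genes cover the 27025 with a window, expressed in these cells or not, while every member was expressed. A match is a description of letters, and where these exact letters are missing nothing follows for the factor.

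The promoters of 4 genes are shown as the 250 bases before the start, 5′ to 3′ on the gene's strand, with all matches in capitals. Hmgcs1 is shown for its sterol regulatory element, and the others, picked after the search, for CCAAT boxes in the mevalonate and the fatty acid branch. ATTGG and CCGCCC are the same motifs on the other strand. The windows are chr13:119690101-119690350 (plus strand) for Hmgcs1, chr5:114444019-114444268 (plus) for Mvk, chr8:122443423-122443672 (minus) for Mvd and chr11:120824548-120824797 (minus) for Fasn.
Hmgcs1: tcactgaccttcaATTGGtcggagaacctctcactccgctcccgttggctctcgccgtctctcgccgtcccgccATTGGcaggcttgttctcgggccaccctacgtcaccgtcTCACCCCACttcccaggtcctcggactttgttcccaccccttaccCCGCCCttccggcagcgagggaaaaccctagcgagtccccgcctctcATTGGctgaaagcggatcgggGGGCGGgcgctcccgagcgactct
Mvk: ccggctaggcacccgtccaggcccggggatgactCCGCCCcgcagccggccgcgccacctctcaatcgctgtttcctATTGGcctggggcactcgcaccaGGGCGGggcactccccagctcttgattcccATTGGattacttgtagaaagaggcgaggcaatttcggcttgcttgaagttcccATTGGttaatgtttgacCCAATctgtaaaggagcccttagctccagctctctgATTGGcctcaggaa
Mvd: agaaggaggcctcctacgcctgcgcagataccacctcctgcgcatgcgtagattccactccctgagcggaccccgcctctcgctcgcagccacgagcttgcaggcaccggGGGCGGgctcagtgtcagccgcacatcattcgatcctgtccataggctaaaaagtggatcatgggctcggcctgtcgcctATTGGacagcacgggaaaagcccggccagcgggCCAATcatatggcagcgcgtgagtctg
Fasn: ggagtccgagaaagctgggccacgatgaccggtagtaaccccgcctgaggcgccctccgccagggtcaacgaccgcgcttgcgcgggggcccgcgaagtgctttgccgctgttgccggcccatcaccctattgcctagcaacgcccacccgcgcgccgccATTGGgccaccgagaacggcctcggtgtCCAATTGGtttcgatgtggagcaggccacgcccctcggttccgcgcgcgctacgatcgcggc
The sterol regulatory element of Hmgcs1, TCACCCCAC, begins 137 bases before the start, between CCAAT boxes at 176 and 45 bases. Mvk holds 5 CCAAT boxes, and in Fasn the boxes at 62 and 59 bases overlap on opposite strands. Among the 29 genes the median knockout ratio was -0.40 with and -0.40 without CCAAT, and -0.46 with and -0.21 without GGGCGG, given as a description.

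The mevalonate enzymes were all lower in the knockout, 8 of 8, with a median log2 ratio of -0.53, and 3 of them passed 1.5-fold on FPKM + 1. Fdps, which makes farnesyl diphosphate, had the largest difference of all 36 genes. The wild-type value was 12.99 FPKM, with 13.14 for siNeg, 14.82 for siDyrk2 and 7.09 in the knockout, 1.83-fold lower than wild type (95% counting interval 1.67 to 2.01). The knockout was low and the other 3 libraries lay close together.

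Acat2, a cytosolic thiolase that joins acetyl-CoA units, was at 17.81, 17.69 and 17.57 FPKM in wild type, siNeg and siDyrk2 and at 10.17 in the knockout, 1.75-fold lower (1.58 to 1.94). Hmgcs1, which makes HMG-CoA, was at 65.44, 59.12 and 66.44 FPKM in the same 3 and at 41.75 in the knockout, 1.57-fold lower (1.51 to 1.63). Again the 3 libraries of wild-type genotype were near each other and the knockout apart. Mvd (-0.52), the decarboxylase that ends in isopentenyl diphosphate, and the mevalonate kinase gene Mvk (-0.47) were lower by less.

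Idi1, the isomerase of isopentenyl diphosphate, had another pattern. It was at 4.39 FPKM in wild type and 4.53 with siNeg, but at 2.69 in the knockout and 2.92 with siDyrk2, so both libraries with little Dyrk2 were low. Pmvk (-0.17), the phosphomevalonate kinase, and Ggps1 (-0.18), which extends farnesyl to geranylgeranyl diphosphate, differed least in this group.

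All 11 enzymes from squalene to cholesterol were lower in the knockout, with a median of -0.51, and the knockout was the lowest of the 4 libraries for each of the 11. The early steps held the larger differences. Fdft1, squalene synthase, was at 22.49, 22.23 and 23.33 FPKM in wild type, siNeg and siDyrk2 and at 13.46 in the knockout, 1.67-fold lower (1.56 to 1.79). Sqle, squalene epoxidase, was at 30.38, 34.05 and 35.32 in the same 3 and at 19.29 in the knockout, 1.57-fold lower (1.5 to 1.66). Lss, which closes the rings to lanosterol, was at 5.97, 5.99 and 5.42 and at 3.55 in the knockout, 1.68-fold lower (1.54 to 1.83).

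Those enzymes make squalene and lanosterol, and for all of them the knockout library lay clear of the other 3. Cyp51, the lanosterol demethylase, was at 43.18, 47.52 and 44.28 FPKM in wild type, siNeg and siDyrk2 and at 27.92 in the knockout, 1.55-fold lower (1.47 to 1.62). Msmo1, the methylsterol oxidase, was at 18.61, 19.09 and 16.04 and at 11.97 in the knockout, 1.55-fold lower (1.46 to 1.65). For Msmo1 the siDyrk2 library lay between the knockout and both controls.

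The other enzymes of this group differed less on FPKM + 1. On FPKM alone Tm7sf2 (1.52-fold lower) and Hsd17b7 (1.48) were close to Cyp51 and Msmo1 (both 1.55). Hsd17b7 (-0.51) and Nsdhl (-0.38), which act in the removal of methyl groups, Tm7sf2 (-0.45), a sterol reductase, and Dhcr7 (-0.30), the last reductase before cholesterol, were lower. Sc5d, the desaturase before it, was at -0.26, and Ebp, the sterol isomerase, at -0.05 with 9.22 FPKM in the knockout against 9.61. The counting interval of Ebp held equality, as did that of Pmvk.

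Exons of Fdft1 overlap those of the protease gene Ctsb on the opposite strand, and exons of Tm7sf2 those of Vps51 on the same strand. The longest shared stretch is 774 bases for Fdft1, of 4116 exonic bases, and 532 for Tm7sf2, of 4403. Reads from the Vps51 stretch could belong to either gene, and so could those from the Ctsb stretch if counting ignored strand, which is not given in the sources used here. Ctsb was higher in the knockout, at 178.00 against 130.84 FPKM.

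The genes that sense and carry sterols did not all follow the enzymes. Insig1, which retains SCAP and is itself an SREBP target, was at 29.96 FPKM in wild type, 35.60 with siNeg, 33.62 with siDyrk2 and 21.11 in the knockout, 1.42-fold lower (1.33 to 1.52). Srebf2, which encodes the factor that mainly serves cholesterol genes, was at 38.28, 44.13 and 37.61 and at 29.07 in the knockout, 1.32-fold lower (1.27 to 1.37). Stard4, a sterol carrier, was at 8.15, 10.56 and 8.61 and at 5.25 in the knockout, 1.55-fold lower (1.41 to 1.72).

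For these 3 genes the knockout was the lowest library and siNeg the highest. Srebf1, whose products mainly serve fatty acid genes, was at 19.31 FPKM in wild type, 20.89 with siNeg, 19.31 with siDyrk2 and 17.02 in the knockout. That was 1.13-fold lower than wild type (1.07 to 1.2), a small difference. Scap was higher in the knockout, at 15.17 against 13.26 FPKM in wild type, while siNeg had 12.88 and siDyrk2 14.60, so its lower libraries were the controls.

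**Figure D2:**
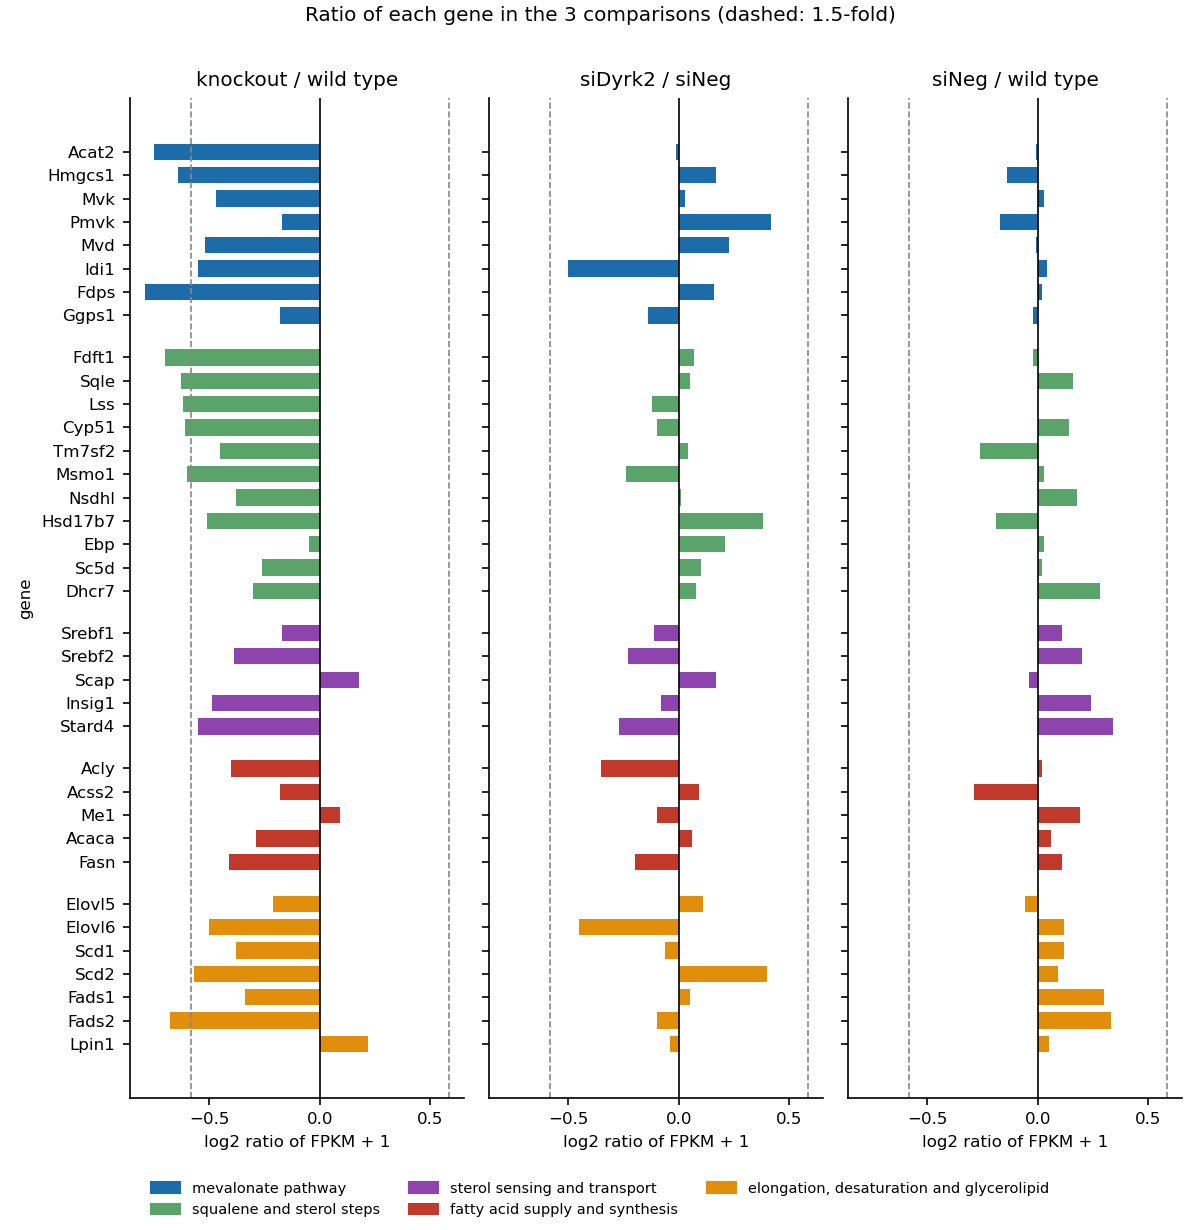
Log2 ratios of FPKM + 1 for the 36 genes in 3 comparisons, 1 bar per gene coloured by role, with dashed lines at 1.5-fold. In the knockout comparison 33 bars point left and 9 cross the dashed line, while in the other comparisons bars point both ways and none crosses it.

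By group medians fatty acid genes were lower in the knockout by less than the mevalonate (-0.53) and squalene-to-cholesterol (-0.51) enzymes, which was not tested. The 7 genes for elongation, desaturation and glycerolipid had a median of -0.38, near the -0.39 of the genes that sense and carry sterols. Among the 5 genes for supply and synthesis the median was -0.29 and none passed 1.5-fold on FPKM + 1. Acly, which makes cytosolic acetyl-CoA from citrate, was at 41.98 against 55.75 FPKM (-0.40), and Fasn, fatty acid synthase, at 19.26 against 26 (-0.41). Acaca (-0.29), which makes malonyl-CoA, and Acss2 (-0.18), which makes acetyl-CoA from acetate, were lower too. Me1, malic enzyme, a source of NADPH, was at 41.90 against 39.43 FPKM (0.09).

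Among the genes that modify fatty acids Fads2 stood out. This desaturase was at 49.06 FPKM in wild type, 61.78 with siNeg, 57.58 with siDyrk2 and 30.22 in the knockout, 1.62-fold lower than wild type (1.54 to 1.71). Its neighbour Fads1, at chromosome 19 10182888 to 10196877 next to Fads2 at 10062765 to 10101746 (GRCm38), read 44.25 in wild type and 34.74 FPKM in Dyrk2-KO cells, and 54.61 and 56.60 with siNeg and siDyrk2. For both genes the knockout was lowest and both transfected libraries were above untransfected wild type.

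Scd2, a stearoyl-CoA desaturase, was the most abundant of the 36 genes. It was at 182.44 FPKM in wild type, 194.54 under siNeg and 257.50 under siDyrk2, and at 122.75 in the knockout, 1.49-fold lower than wild type (1.46 to 1.52). The paralogue Scd1, near it on chromosome 19 (44394455 to 44407879, against 44293674 to 44306864 for Scd2), was at 29.31, 31.86, 30.46 and 22.24 FPKM in the same order. The paralogues thus shared the low knockout value, and with siDyrk2 Scd2 was the higher library while Scd1 was near its control. Reads that fit both paralogues could have been split between them.

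Elovl6, which extends palmitate, was at 10.53 FPKM in wild type, 11.55 with siNeg, 8.18 with siDyrk2 and 7.15 in the knockout, low in both libraries with little Dyrk2. Elovl5 (-0.21), which extends polyunsaturated fatty acids, differed less. Lpin1, a phosphatidate phosphatase on the way to triglycerides, was higher in the knockout, at 5.43 against 4.52 FPKM (0.22), and this was the largest difference upward among the members.

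With siDyrk2 the pathway as a whole was close to its control. Against siNeg 17 genes were lower and 19 higher, beside 45% and 54.3% of all tested genes, and the median was 0.02, as it was for all tested genes. No member was 1.5-fold different on FPKM + 1, against 2.74% of all genes lower and 3.78% higher, and none was 2-fold different, against 0.796% and 0.749%. At the smaller size of 1.2-fold on FPKM + 1, 4 members were lower, against 11.9%, and 3 higher, against 17.5%. Counting intervals left out equality for 23 genes, 13 lower and 10 higher, so small differences in both directions exceeded counting error.

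On FPKM alone Idi1 was 1.55-fold lower (1.3 to 1.85). The 4 lower genes were Idi1 (-0.50), Elovl6 (-0.45), Acly (-0.35) and Stard4 (-0.27). With siDyrk2 Stard4 was at 8.61 FPKM, above untransfected wild type (8.15), and siNeg was its highest library (10.56). All 4 were also at least 1.2-fold lower in the knockout, which has a separate control. They made up 15.4% of the 26 members at least 1.2-fold lower there (13.2% of all genes) and 100% of the 4 with siDyrk2. Over all tested genes 462 were 1.2-fold lower in both, 27.4% of the knockout list and 30.4% of the siDyrk2 list.

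The 3 higher genes were Pmvk (0.42), Scd2 (0.40) and Hsd17b7 (0.38). Pmvk was at 9.52 against 6.87 FPKM, 1.39-fold higher (1.17 to 1.64), Scd2 1.32-fold higher (1.30 to 1.35), and Hsd17b7 at 13.24 against 9.93, 1.33-fold higher (1.23 to 1.45). For Pmvk and Hsd17b7 siNeg was also below wild type, at 7.88 and 11.51 FPKM. Fdps (0.16), Acat2 (-0.01), Fdft1 (0.07) and Sqle (0.05), low in the knockout, were near siNeg.

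**Figure D3:**
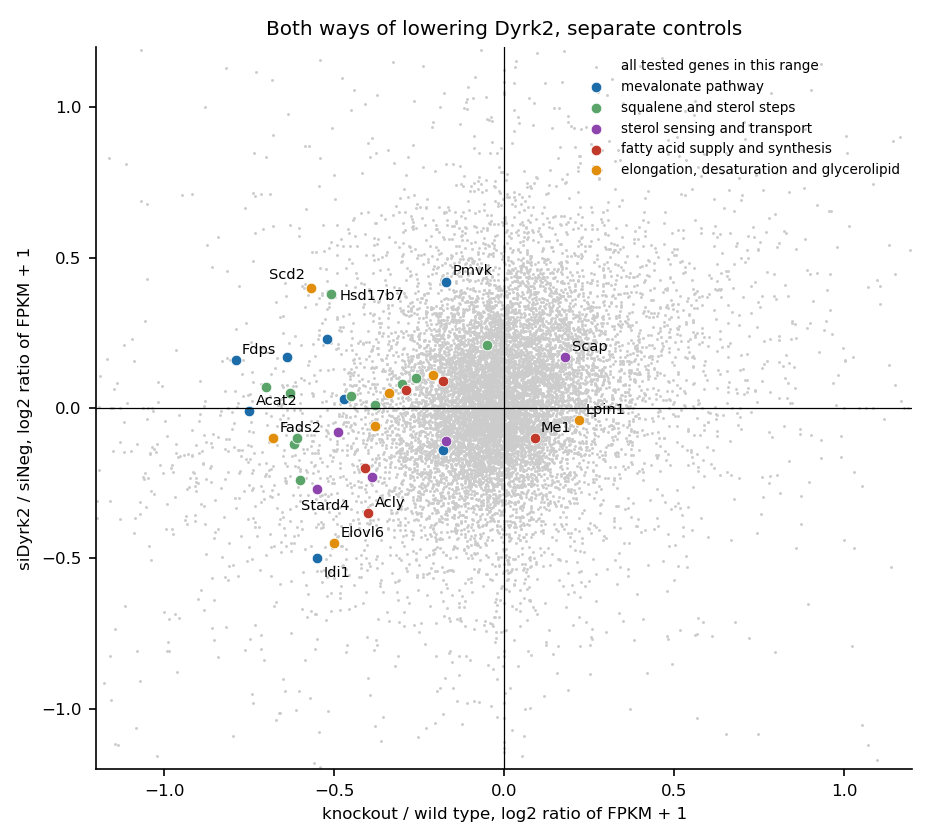
Log2 ratio of FPKM + 1 in the knockout (horizontal) and with siDyrk2 (vertical), each against its own control, with members coloured by role over all tested genes within 1.2 of 0 in grey. Most members lie left of 0 and near 0 on the vertical axis. Idi1, Elovl6, Acly and Stard4 are below their own controls in both, and Scd2 and Hsd17b7 lie in opposite directions.

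The comparison of both controls, siNeg against untransfected wild type, shows how far these genes differed between these libraries with Dyrk2 intact. It shares a library with each comparison above. Ddx3y was at 0.02 FPKM or less in both controls, so this comparison does not cover the difference in Y-linked expression. Of the 36 genes 25 were higher and 11 lower, beside 48.3% and 51% of all tested genes, with a median of 0.04, and none was 1.5-fold different on FPKM + 1 (1.42% of all genes higher and 2.37% lower, and 0.367% and 0.562% by 2-fold). At 1.2-fold 4 were higher (9.62% of all genes), Stard4 (0.34), Fads2 (0.33), Fads1 (0.30) and Dhcr7 (0.28), and 1 was lower (13.4%), Acss2 (-0.29). The siNeg library was often above wild type, and the knockout differed more from it: Fads2 was at -1.01 against siNeg and Stard4 at -0.89. With siNeg as the control 15 members were at least 1.5-fold lower in the knockout on FPKM + 1, against 5.77% of all tested genes. The median was then -0.52 for the members and -0.01 for all tested genes. With siDyrk2 in that place 14 members were, against 6.2%.

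Other pathway genes that are not among the 36 had a median closer to 0. Of 28 further genes of sterol and fatty acid synthesis 22 were measured. In the knockout 17 were lower and 5 higher (median -0.07), beside 55.6% and 43.7% of all tested genes. Acsl3, which activates fatty acids, was at -0.48 and Tmem97, a sterol-responsive membrane protein, at -0.47. With siDyrk2 12 of the 22 were higher, close to the 54.3% of all tested genes. Fads3 had the largest ratio there, at 41.70 against 26.56 FPKM (0.63).

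Genes that use isoprenoids were near wild type in the knockout, with 10 of 12 lower (55.6% of all tested genes) and a median of -0.06. Dhdds, which makes dolichol precursors, was at 0.06 and Pdss1, for the ubiquinone side chain, at -0.33. Genes for the export and storage of sterols had 9 of 12 higher (43.7% of all tested genes) and a median of 0.14. Among them the exporter gene Abcg1 (1.52 against 0.72 FPKM), the liver X receptor gene Nr1h3 (1.04 against 0.45) and the lysosomal lipase gene Lipa (43.88 against 31.95) were higher in the knockout. With siDyrk2 against siNeg 8 of the 12 were higher (54.3% of all tested genes), with a median of 0.07. Abcg1 (1.61 against 1.06 FPKM) and Nr1h3 (0.80 against 0.42) were higher there too, while Lipa (26.36 against 28.67) was lower. In the knockout 0 genes of either list were 1.5-fold different on FPKM + 1, beside 4.06% of all tested genes lower and 2.58% higher. This scale shrinks the ratio of genes as low as Abcg1 and Nr1h3. Nr1h3, counted among the 9 of 12 higher genes, reached 1 FPKM only in the knockout. The filter thus fixed its direction in that comparison. Osbp, an oxysterol-binding protein, was at 14.55 FPKM with siNeg and at 23.79, 23.76 and 20.79 in wild type, knockout and siDyrk2, so siNeg was the low library.

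Fatty acid oxidation genes had 12 of 18 members above wild type in the knockout (median 0.06), against 43.7% of all tested genes. Cpt1a, the entry step of mitochondrial oxidation, was at 24.42 against 16.75 FPKM (0.52). With siDyrk2 against siNeg 13 of the 18 were higher (median 0.10), against 54.3% of all tested genes. Among them were Cpt2 (0.46), which acts after Cpt1a, and the electron transfer gene Etfb (0.49).

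**Figure D4:**
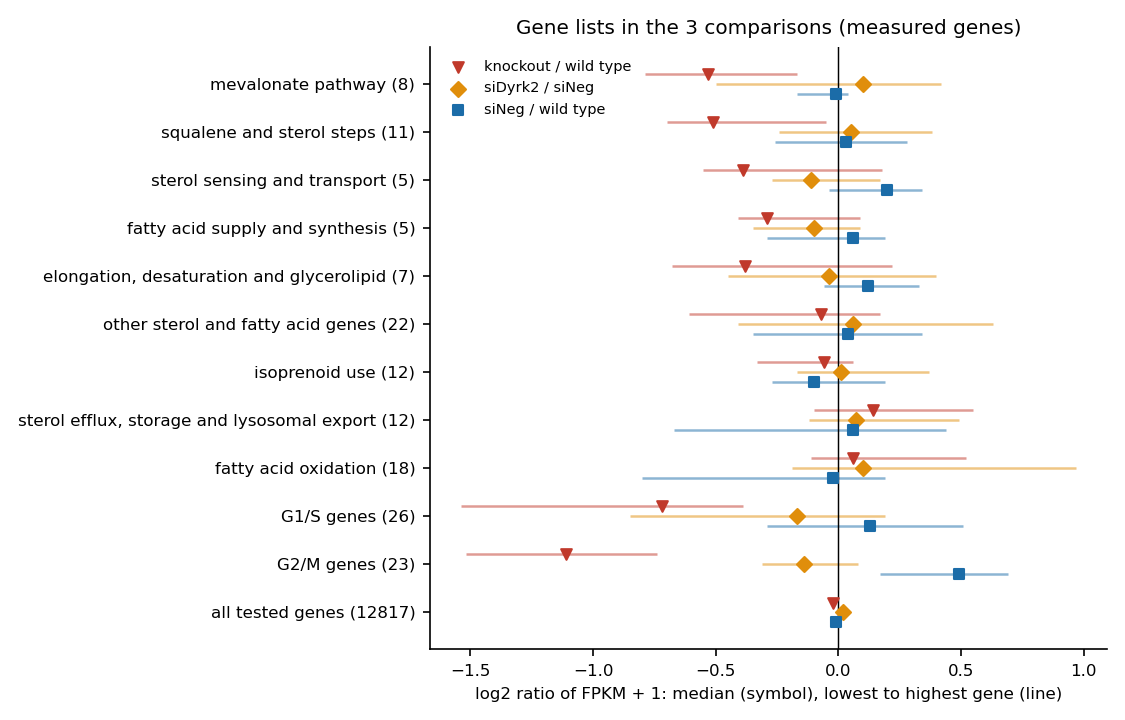
Median log2 ratio of FPKM + 1 (symbols) and the range from the lowest to the highest gene (lines) for each list in the 3 comparisons, with the number of measured genes in brackets. The knockout medians of the 5 synthesis groups run from -0.53 to -0.29, those of the lists for sterol export and oxidation are 0.14 and 0.06, and those of the G1/S and G2/M lists are -0.72 and -1.11.

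Other gene groups were also different in the knockout library. All 26 G1/S genes and all 23 measured G2/M genes were lower, against 55.6% of all tested genes. The medians were -0.72 and -1.11, with Uhrf1 at -1.54 and Plk1 at -1.52. Summed G2/M levels were 195, 74.9, 283 and 260 FPKM in wild type, knockout, siNeg and siDyrk2, and those of the 36 lipid synthesis genes 928, 675, 992 and 1040. Between both controls the G2/M median was 0.49, the G1/S median 0.13 and that of the lipid synthesis genes 0.04. The part of cell division in the lipid synthesis result was not tested.

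Macrophage markers were higher in the knockout for 11 of 11 genes, against 43.7% of all tested genes, led by Ctss (1.11) and Lyz2 (1.11). Their summed levels were 267, 533, 307 and 381 FPKM in the same order. In siNeg against wild type 11 of 11 were also higher (48.3% of all tested genes), with a median of 0.34 against 0.81 in the knockout. With siDyrk2 against siNeg 10 of 11 were higher (54.3%), among them Aif1, which reached 1 FPKM only with siDyrk2. Of 10 adipocyte markers 4 were measured and higher in the knockout, led by Cd36 (1.13) and Lpl (0.56). Summed levels over all 10 were 60.3, 95.7, 57.1 and 67.1 FPKM. The defining adipocyte genes Adipoq, Cidec, Lep and Retn were at 0 in all 4 libraries, and Plin1 was at 0.01 FPKM or less. Of the 7 fibroblast markers 5 were higher and 2 lower in the knockout, beside 43.7% and 55.6% of all tested genes, with a median of 0.06. Thy1 had the lowest ratio, at 159.10 against 287.88 FPKM (-0.85), and Col3a1 the highest, at 2037.68 against 1707.01 (0.26). The part of cell makeup in the lipid synthesis result was not tested, and in these bulk libraries fewer cells of a type and less RNA per cell cannot be told apart.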

How the data were processed

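RNA from 4 cultures of SAG-treated primary mouse embryonic fibroblasts was sequenced after polyA selection with a stranded kit, per the labels' protocols. Trimming and alignment tools appear in the submitters' processing notes as HISAT2 2.0.1 and cutadapt 1.9.1, with the build GRCm38. For the counting program, its use of strand and its annotation, names are not given in the sources used. Values were deposited as FPKM with 2 decimals beside the exonic length, per the file headers, and FPKM times length sums to the same total in every library.

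Symbols and coordinates came from GENCODE M21 on GRCm38, which matched 55480 of 55573 identifiers. Depth was estimated from genes of at most 200 bases, whose FPKM moves in steps of 1 fragment. It placed 100% of 341 to 402 such genes on whole fragments within rounding, at 23926059 fragments for wild type, 21873314 for the knockout, 19979510 for siNeg and 21471735 for siDyrk2. Ratios are log2 of FPKM + 1, so differences of weakly expressed genes are understated. Folds are ratios of FPKM with exact 95% conditional binomial intervals (Clopper-Pearson) on the estimated fragments. The intervals cover counting error only.

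Since each group held 1 library, no test could be made. Genes were counted by size, at least 1.5-fold on FPKM + 1 among 12817 genes with at least 1 FPKM in any library. All 36 members are described, with values in all 4 libraries for those past 1.5-fold and for Srebf1, Srebf2, Scap and Insig1. Up to 4 genes of each other pathway list and 2 of each marker list were named, those with the largest ratios in any comparison, and further ones were picked after their values were seen. Some genes that this rule selects are not reported here. The members and lists were chosen with earlier results of these data known. The scripts, in Python 3.11.15 with pandas 2.3.3 and scipy 1.17.1, were tested on simulated data. Alternatives were pseudocounts of 0.1 and 5, filters, scaling, size rules and the other control libraries.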

Additional observations from a re-analysis of the deposited data

Results flagged for a closer look

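Scd2 and Hsd17b7 were lower in the knockout than in wild type and higher with siDyrk2 than with siNeg, each by at least 1.2-fold on FPKM + 1. For Scd2 the log2 ratios were -0.57 and 0.40, a difference of -0.97. For Hsd17b7 they were -0.51 and 0.38, a difference of -0.89. Each ratio rests on 1 library per group, and the difference between both ways of lowering Dyrk2 was not tested.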

How the results depend on the processing

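The count of 9 members at least 1.5-fold lower in the knockout became 3 with a pseudocount of 5, 26 under a 1.2-fold rule and 0 under a 2-fold rule. It was 15 with siNeg and 14 with siDyrk2 in place of wild type, where 5.77% and 6.2% of all tested genes were as much lower. Both other scalings gave 7, and a pseudocount of 0.1 gave 12. The knockout median stayed between -0.52 and -0.35 under all settings run, and 30 to 31 of 36 members were lowest in the knockout under the scalings (28 of the 32 at 5 FPKM or more). With siDyrk2 against siNeg a pseudocount of 0.1 gave 1 lower member in place of 0, and the 1.2-fold rule 4 lower and 3 higher. The median of 0.02 moved to between -0.01 and 0.02, so its sign has no weight. With siNeg against wild type the 1.2-fold rule gave 1 lower and 4 higher members in place of 0 and 0. Under the other scalings the median of all tested genes moved by less than 0.1 on the log2 scale, and 33 members were lower in the knockout under each. No paired analysis was possible because each group holds 1 library and the labels give no shared replicate numbers. Depth of 19979510 to 23926059 fragments limits counting precision only, while the spread between cultures is unknown.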
